A study of Mus musculus and Sus scrofa with 18 samples.

Results

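The clustered protocadherins are cell surface adhesion proteins encoded side by side on mouse chromosome 18 in an alpha, a beta and a gamma cluster. Their members were taken from the mouse count table by symbol: 58 of its 55357 genes matched, 14 in the alpha, 22 in the beta and 22 in the gamma cluster. In the alpha cluster 2 gene IDs share the symbol Pcdha11 (ENSMUSG00000007440 and ENSMUSG00000102206) and are given apart by ID. Of the members, 57 had enough counts to be tested among 19463 genes. Pcdhb1, with 0 to 13 counts in a library, was the member left out.

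Each neuron chooses a small set of alpha, beta and gamma promoters by a process that involves DNA methylation, CTCF and cohesin. In the alpha and gamma clusters the exon behind the chosen promoter is spliced to constant exons shared by the whole cluster, whereas a beta member is a gene of its own with no constant exons. The proteins bind identical combinations on other membranes, by which a neuron tells its own branches from those of its neighbours. The C-type members (Pcdhac1, Pcdhac2, Pcdhgc3, Pcdhgc4 and Pcdhgc5) lie at the ends of the alpha and gamma clusters and are used in a more regular way than the others, and Pcdhgc4 is known for its part in neuronal survival.

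Striatal RNA came from 9 mice, 3 in each of 3 groups. WT mice had received AAV9 with the control gRNA and no CasRx. Untreated HD mice were heterozygous HD 140Q-KI mice, whose Htt gene holds exon 1 of human HTT with a lengthened CAG repeat, and had received AAV9-CasRx with the control gRNA. Treated HD mice were of the same genotype and had received AAV9-CasRx with the gRNAs against human HTT exon 1. CasRx, an RNA-cutting Cas13 enzyme, was driven by the broadly active CAG promoter and the gRNAs by U6 promoters. The HD mice came from crosses of heterozygous males with C57BL/6J females. All vectors went into the striatum of both sides at 6 months of age, and tissue was taken 6 weeks later. Because WT mice had no CasRx, the knock-in allele and CasRx cannot be told apart in a comparison with WT. Treated and untreated mice were given the same CasRx vector with different gRNA vectors. Untreated mice had a control gRNA vector, and treated mice had separate vectors for the pairs of gRNAs against HTT exon 1.

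The libraries held 27184356 to 32102121 counts each, of which 28295 to 38239 fell on the 58 members. Levels are given as CPM, counts scaled to a common library size after TMM normalization. The targeted gene, Htt, was at 187 ± 4.79 CPM in WT mice, and at 145 ± 4.60 and 135 ± 4.64 CPM in the untreated and treated HD mice (mean ± SD, n = 3, as for every mean below). Both HD groups were below WT in edgeR's quasi-likelihood test (p adjusted over all genes of 0.00656 and 0.00425). In treated against untreated mice Htt was at -0.10 on the log2 scale and did not pass (edgeR adjusted p = 0.942). These groups did not overlap, with treated mice lower, and no gene passed after adjustment in this comparison. The count is per gene, so it does not part the knock-in allele, which holds the human exon, from the other allele. By RT-qPCR, the study reports less mutant HTT mRNA in treated mice at each age of injection. Knockdown of the knock-in allele alone was not tested here. Counts of Y-linked genes were present in 4 libraries, the 3 WT mice and untreated mouse 1, and absent from the other 5. The summed level of 12 markers of striatal projection neurons was 7096 to 9261 CPM in WT mice, and 2242 to 2656 and 3496 to 3547 CPM in the untreated and treated HD mice. That of 5 markers of cortical excitatory neurons was 204 to 886, 1015 to 1210 and 690 to 756 CPM, and that of 7 microglial markers was 310 to 342, 383 to 936 and 474 to 620 CPM. Untreated mouse 3 stood apart, with 936 CPM of the microglial markers and 55.8 CPM of 7 markers of T cells and cytotoxic lymphocytes. The latter were at 0 to 0.399 CPM in WT mice, 2.31 and 6.74 CPM in the other 2 untreated mice and 2.54 to 13.9 CPM in treated mice. In that mouse the astrocyte gene Gfap was at 574 CPM, against 231 and 264 CPM in the other 2. Other astrocyte markers did not all follow. Of the 3 untreated mice, mouse 3 had the most Aqp4 and Slc1a3 and the least Slc1a2 and Gja1, while its Aldh1l1 and Aldoc lay between. The summed level of the 7 astrocyte markers, Gfap among them, was 3728 to 4350 CPM in WT, 3807 to 4237 CPM in untreated and 3825 to 4281 CPM in treated mice. The summed level of 10 markers of choroid plexus and ependyma was 79.9 to 3856 CPM in WT, 55.3 to 203 CPM in untreated and 55.5 to 1324 CPM in treated mice. Every gene of these lists had counts. Their part in the protocadherin results was not tested, and in bulk tissue fewer cells of a type and less RNA per cell cannot be told apart.

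A differentially expressed gene (DEG) had an unadjusted P under 0.05 and at least a 2-fold difference in edgeR's quasi-likelihood test. None of the 57 members was a DEG in untreated against WT mice, where 8.16% of all genes tested were, and none in treated against WT mice, where 5.22% were, by edgeR or by DESeq2. Without a fold threshold, 14 of 57 (24.6%, with 28.6% of all genes) and 17 of 57 (29.8%, with 21.4% of all genes) had an unadjusted P under 0.05 by edgeR in these comparisons. In treated against untreated mice 1 member, Pcdhb6, was a DEG, against 0.771% of all genes. With Benjamini-Hochberg adjustment over all genes and no fold threshold, 6 of 57 members passed 0.05 in untreated against WT mice (10.5%, with 10.7% of all genes), 2 of 57 in treated against WT mice (3.51%, with 3.69% of all genes) and none in treated against untreated mice, where no gene of the table passed. The shares by adjusted p in the comparisons with WT are close to those of all genes. Between treated and untreated mice, 9 of 57 members (15.8%) had an unadjusted P under 0.05, with 5.5% of all genes. The clusters differed in direction, with the beta median above and the gamma median below WT in untreated mice.

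**Figure D1:**
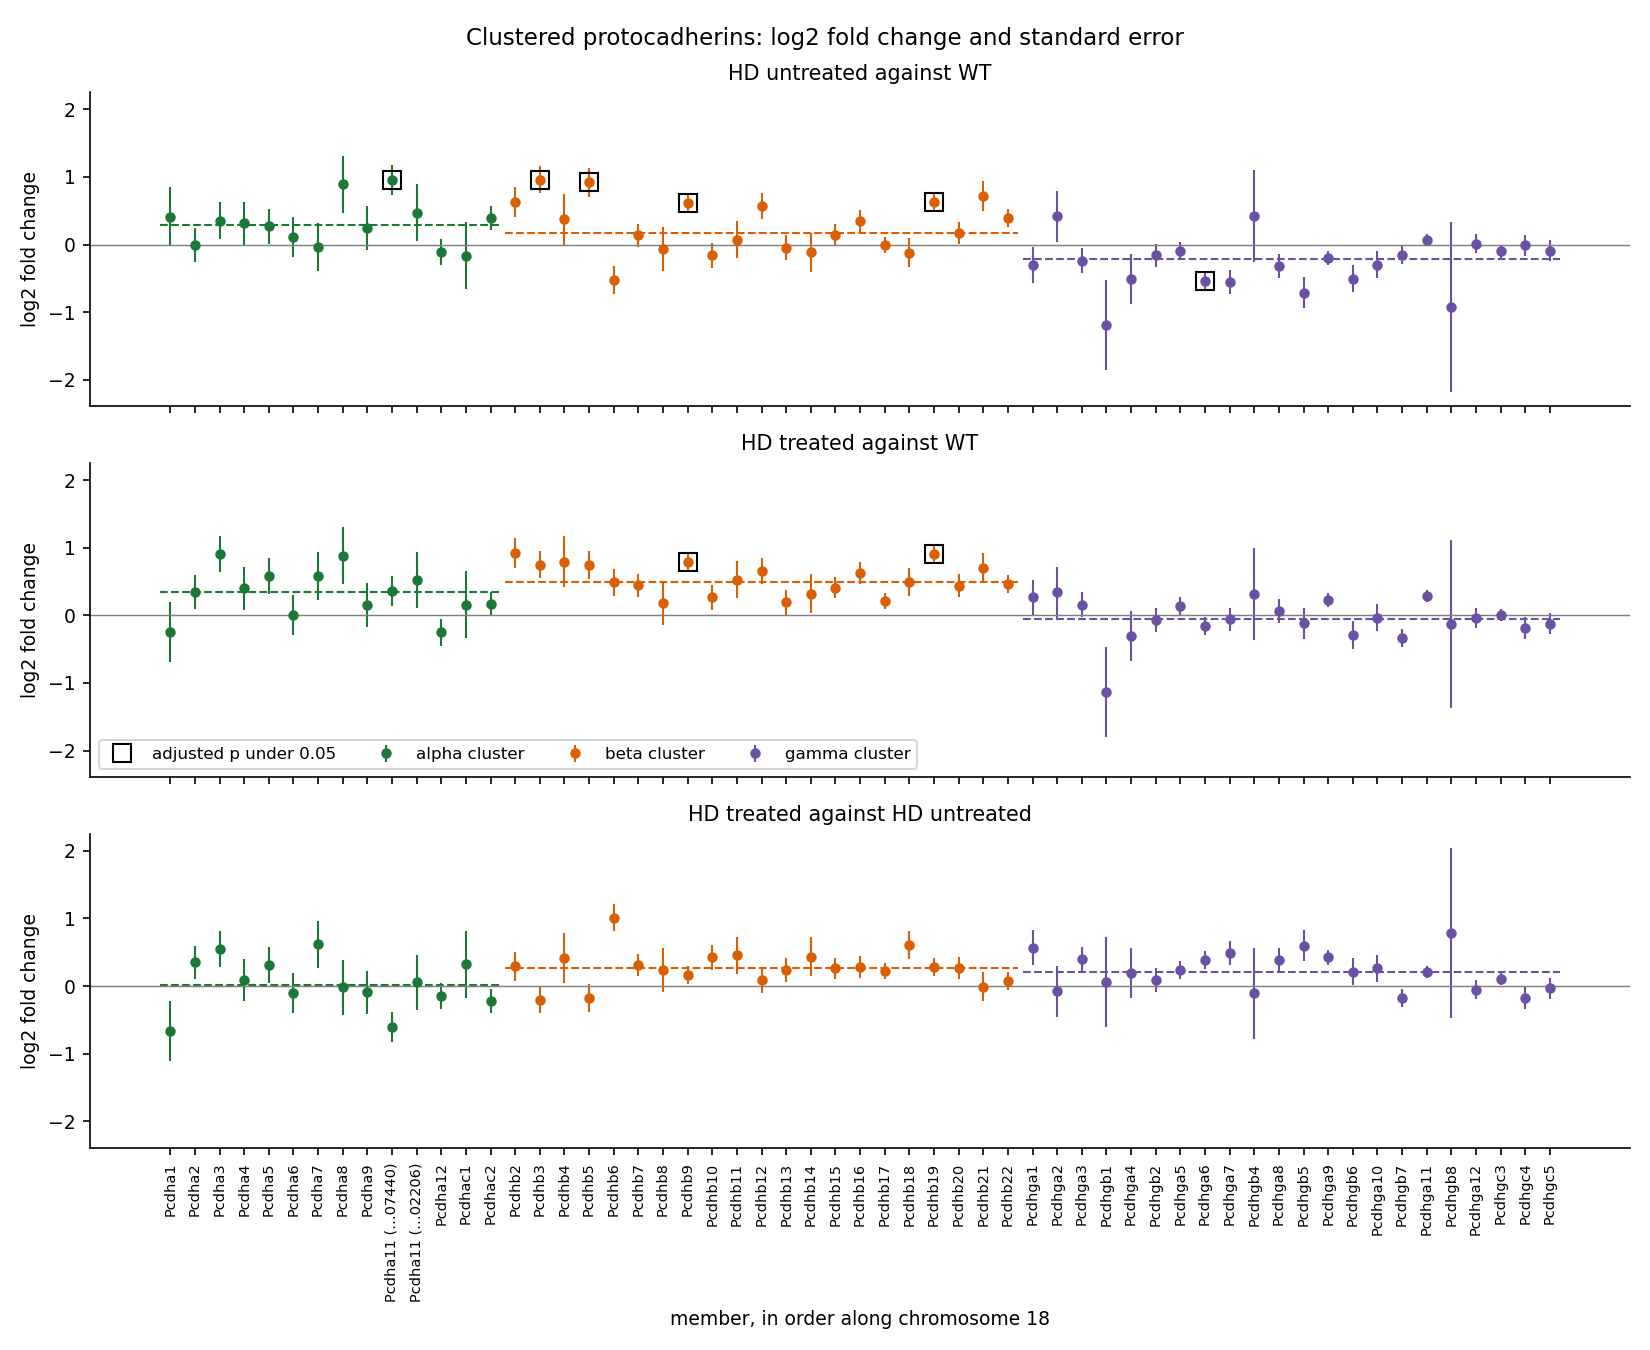
Log2 fold change of each tested member (points, bars are standard errors) in its order along chromosome 18, in untreated HD against WT, treated HD against WT and treated against untreated HD mice. Dashed lines are cluster medians and squares mark an adjusted p under 0.05. In the middle panel every one of the 21 beta members lies above 0, with a median of 0.49.

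The beta cluster stood above WT in the treated mice. The summed level of its 22 members was 136, 119 and 149 CPM in WT mice, 173, 169 and 135 CPM in untreated mice, and 190, 186 and 192 CPM in treated mice. All 3 treated mice were above all WT and all untreated mice, and untreated mouse 3 lay within the WT range. The means were 135 ± 15.04, 159 ± 20.8 and 189 ± 3.45 CPM, so that untreated mice stood at 118% and treated mice at 141% of WT. Most members took part: in treated mice 1, 2 and 3, 21, 20 and 21 of the 21 tested beta members lay above their WT mean, whereas in untreated mice 1, 2 and 3 it was 18, 18 and 11.

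**Figure D2:**
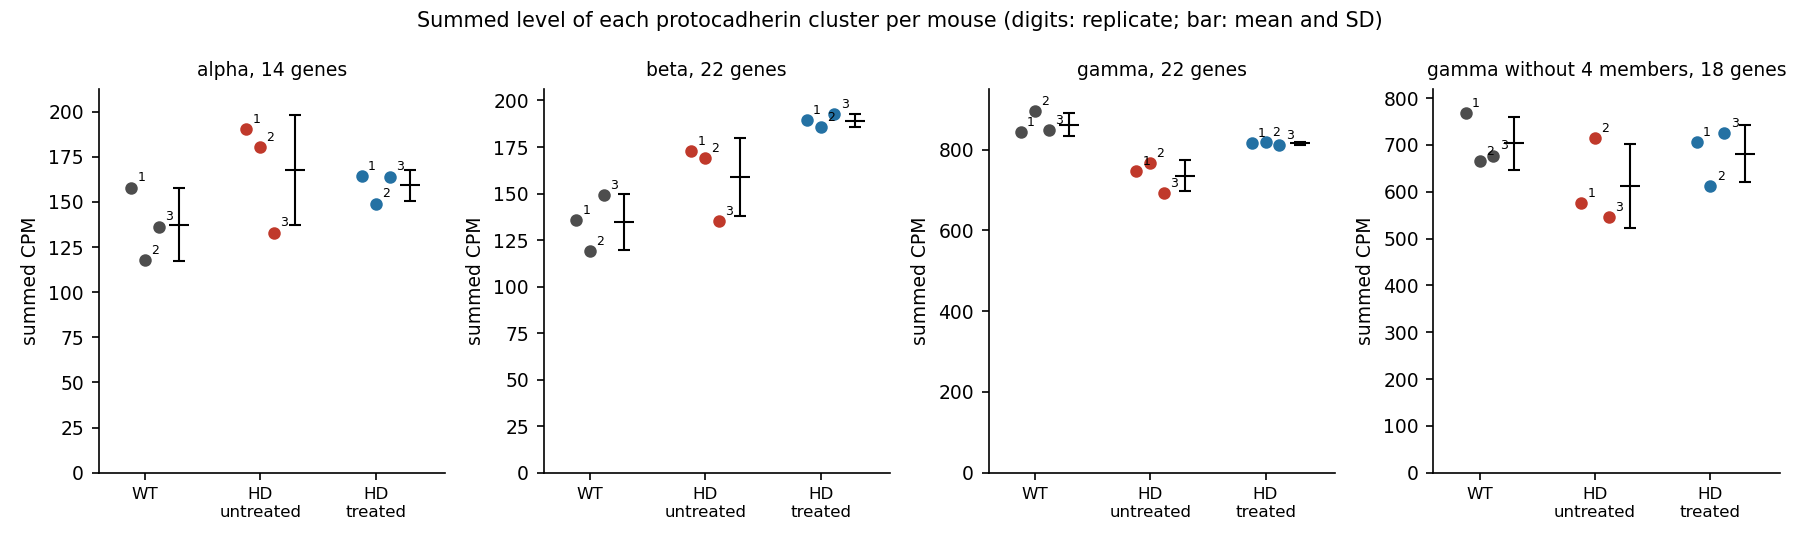
Summed CPM of the alpha, beta and gamma members in each mouse, with the gamma cluster also shown without Pcdhga2, Pcdhgb1, Pcdhgb4 and Pcdhgb8. Points are mice, digits their replicate numbers, bars the mean and SD. The treated mice sit between 186 and 192 CPM in the beta panel, above the 119 to 149 CPM of WT mice.

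In treated against WT mice the median log2 fold change of the beta cluster was 0.49, against 0.00 over all genes tested, and 21 of 21 members were above 0. At an unadjusted P under 0.05, 14 of 21 (66.7%) were higher and none was lower, beside 9.78% of all genes higher. The treated and WT mice did not overlap, with treated higher, for 13 of 21 members, beside 13.4% of all genes. In untreated against WT mice the beta median was 0.17, against 0.02 over all genes, with 14 of 21 members above 0. Here 8 of 21 (38.1%) were higher and 1 was lower at an unadjusted P under 0.05, beside 15% and 13.7% of all genes. Both comparisons use the same WT mice. In treated against untreated mice the beta median was 0.27, against -0.01 over all genes, with 18 of 21 members above 0. Only 3 of 21, Pcdhb6, Pcdhb10 and Pcdhb18, were higher at an unadjusted P under 0.05 (2.5% of all genes), while the groups did not overlap for 9 of 21 (6.92% of all genes), all with treated mice higher. Pcdhb10 and Pcdhb18 are named after their values were seen.

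The Y-linked counts split the treated mice from the WT mice completely, so that in this comparison what goes with them cannot be told apart from the groups. Within untreated mice, the beta sum of mouse 1, which had Y-linked counts, was 173 CPM, and those of mice 2 and 3, which had none, were 169 and 135 CPM. A fit with a term for these counts can set that term only from untreated mouse 1 against untreated mice 2 and 3. Its values therefore do not part the Y-linked counts from the groups in treated against WT mice. The fit put the beta median in that comparison at 0.69, with 10 members higher at an unadjusted P under 0.05 (2.17% of all genes in that fit). In treated against untreated mice the fit left 1 such member (1.77% of all genes), and Pcdhb6 was no longer a DEG. What goes with the Y-linked counts also differs between these groups, through untreated mouse 1.

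**Figure D3:**
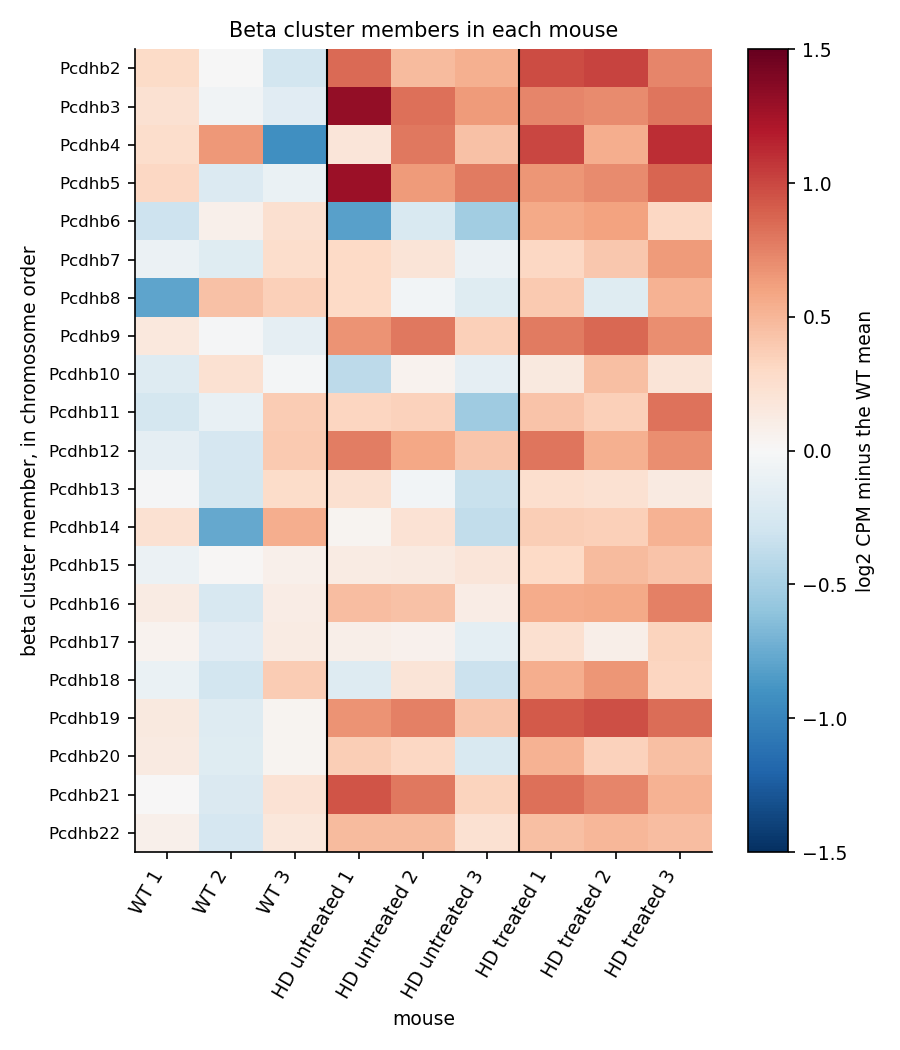
Log2 CPM (prior count 2) of the 21 tested beta members in each of the 9 mice, minus the mean of the 3 WT mice, with red above and blue below it. The columns of the 3 treated mice are red nearly throughout, and those of the untreated mice are mixed, with Pcdhb6 blue in all 3.

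Pcdhb6 was the member called between treated and untreated mice. It had 4.64, 6.09 and 6.84 CPM in WT mice, 3.26, 4.93 and 4.004 CPM in untreated mice, and 8.63, 8.82 and 7.20 CPM in treated mice, from 93 to 282 counts a library. All treated mice were above all other mice, and untreated and WT mice overlapped. In treated against untreated mice its log2 fold change was 1.01 ± 0.20 (SE), a 2.02-fold difference with an unadjusted P of 0.000663 and an adjusted p of 0.736 in edgeR's quasi-likelihood test. The log2 fold change was -0.53 ± 0.20 in untreated against WT mice (adjusted p = 0.125) and 0.49 ± 0.20 in treated against WT mice (adjusted p = 0.204), in the same edgeR fit. DESeq2 gave the treated against untreated difference an adjusted p of 0.00574, and over 16 alternative settings it ran from there to 1. The fold lay just at the 2-fold limit: without untreated mouse 1, treated mouse 1 or treated mouse 2 the log2 fold change was 0.88, 0.98 or 0.97, and the gene was no longer a DEG.

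Pcdhb9 and Pcdhb19 were the members that rose in both HD groups by edgeR's adjusted p. Pcdhb9, also 1 of the 3 beta members with the largest mean CPM, had 10.98, 9.72 and 8.97 CPM in WT, 15.7, 17.0 and 12.7 CPM in untreated and 17.0, 17.9 and 16.1 CPM in treated mice. Every HD mouse was above every WT mouse, and the 2 HD groups overlapped. It rose by 0.61 ± 0.14 on the log2 scale in untreated mice (edgeR adjusted p = 0.0238) and by 0.78 ± 0.14 in treated mice (edgeR adjusted p = 0.0162). Pcdhb19 had 6.68, 5.28 and 6.21 CPM in WT, 9.67, 10.3 and 8.08 CPM in untreated and 11.4, 11.8 and 10.8 CPM in treated mice. Its 3 groups did not overlap, with WT lowest and treated highest. The log2 fold change was 0.62 ± 0.14 in untreated (edgeR adjusted p = 0.0264) and 0.91 ± 0.14 in treated mice (edgeR adjusted p = 0.0107), and 0.28 ± 0.14 between treated and untreated mice (edgeR adjusted p = 0.901). Pcdhb19, and Pcdhb3, Pcdhb5, Pcdhga6 and Pcdha11 below, are named after their values were seen, because so few members passed.

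Pcdhb3 and Pcdhb5 rose in untreated mice. Pcdhb3 had 4.98, 4.07 and 3.75 CPM in WT, 10.7, 7.55 and 6.65 CPM in untreated and 7.10, 6.98 and 7.42 CPM in treated mice. Its log2 fold change was 0.96 ± 0.20 in untreated (edgeR adjusted p = 0.019) and 0.75 ± 0.20 in treated mice (edgeR adjusted p = 0.0709). Pcdhb5 had 4.57, 3.19 and 3.42 CPM in WT, 9.04, 5.77 and 6.35 CPM in untreated and 5.85, 6.06 and 6.81 CPM in treated mice. The log2 fold change was 0.92 ± 0.21 in untreated (edgeR adjusted p = 0.0281) and 0.74 ± 0.21 in treated mice (edgeR adjusted p = 0.087). For both genes every HD mouse was above every WT mouse, and untreated mouse 1 was the highest of all 9. Without that mouse Pcdhb3 stood at 0.73 and Pcdhb5 at 0.70 in untreated against WT mice, with an adjusted p of up to 0.0637 and 0.0902 among the edgeR fits that leave out 1 mouse.

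These calls changed with the mice that entered the fit. In a fit of the untreated and WT mice alone, no member passed an adjusted p of 0.05, where 3.89% of all genes did, and the same was so without WT mouse 2, where 4.57% did. It was 2 members without WT mouse 3 (7.4% of all genes) or untreated mouse 1 (8.18%), 3 without treated mouse 1 (6.32%) and 5 without untreated mouse 3 (5.32%) or treated mouse 3 (6.9%). The count was 6 without WT mouse 1 (12.9%) or treated mouse 2 (6.53%), and 7 without untreated mouse 2 (5.75%). In treated against WT mice no member passed without treated mouse 1 or 2, where 0.864% and 0.683% of all genes did. In that comparison 1 passed without WT mouse 2 (1.55%) or treated mouse 3 (0.89%), and 5 passed without untreated mouse 3 (6.96%). The count was 2 without untreated mouse 2 (2.27%), and 3 without WT mouse 1 (5.46%), WT mouse 3 (3.43%) or untreated mouse 1 (3.44%). With DESeq2, 10 members passed in untreated against WT (17.8% of all genes) and 10 in treated against WT mice (10% of all genes). Over the 16 alternative settings, Pcdhb3 passed in 13, Pcdhb5 in 11, Pcdhb9 in 10 and Pcdhb19 in 8 for untreated against WT mice, and for treated against WT mice Pcdhb9 passed in 11 and Pcdhb19 in 13.

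**Figure D4:**
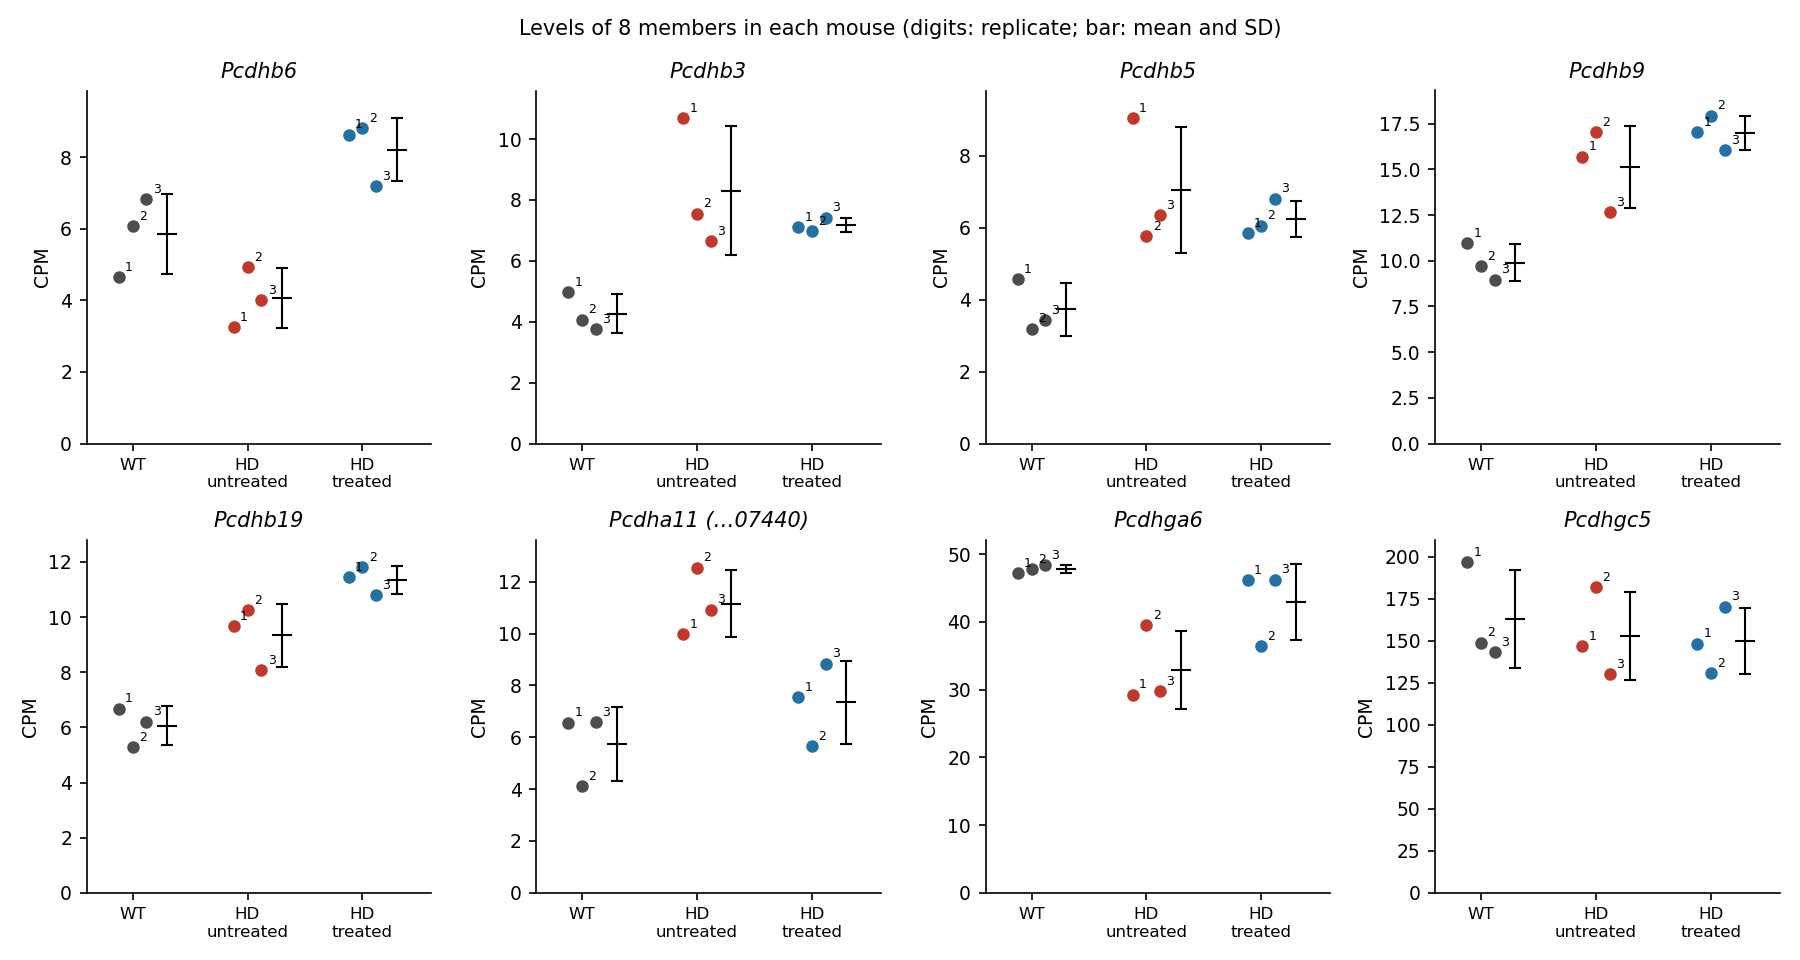
CPM of 8 members in each mouse (points, digits are replicate numbers, bars the mean and SD). Pcdhb6 is highest in the 3 treated mice, Pcdhb9 and Pcdhb19 are above WT in all 6 HD mice, Pcdha11 (ENSMUSG00000007440) is highest in untreated mice, Pcdhga6 is lower in HD mice, and the groups of Pcdhgc5 overlap.

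The other beta members with the largest mean CPM differed less. Pcdhb17 had 17.1, 14.5 and 17.8 CPM in WT, 17.4, 17.2 and 14.8 CPM in untreated and 19.4, 17.4 and 20.6 CPM in treated mice, and its groups overlapped in every comparison. Pcdhb20 had 13.3, 10.6 and 12.5 CPM in WT, 15.7, 15.03 and 10.3 CPM in untreated and 17.4, 15.4 and 16.6 CPM in treated mice. All treated mice were above all WT mice for Pcdhb20, with a log2 fold change of 0.44 ± 0.17 that did not pass after adjustment (edgeR adjusted p = 0.165).

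The gamma cluster went the other way in untreated mice. Its 22 members summed to 843, 895 and 849 CPM in WT mice, to 748, 767 and 692 CPM in untreated mice, and to 817, 819 and 811 CPM in treated mice. All untreated mice were below all other mice, and treated mice lay below WT and above untreated mice without overlap. Without TMM factors WT mice were at 821, 882 and 822 CPM and treated mice at 831, 831 and 823 CPM, so that these groups overlapped, while untreated mice, at 745, 780 and 701 CPM, were still below all others. With TMM factors the means were 862 ± 28.3, 736 ± 39.0 and 816 ± 4.33 CPM, or 85.3% and 94.6% of WT. The median log2 fold change of the members was -0.22 in untreated against WT mice, with 4 of 22 above 0, and -0.05 in treated against WT mice (0.01 without TMM factors), with 9 of 22 above 0. In treated against untreated mice it was 0.21, with 16 of 22 above 0. At an unadjusted P under 0.05, 4 of 22 members (18.2%, with 13.7% of all genes) were lower in untreated against WT mice, Pcdhga6, Pcdhga7, Pcdhgb5 and Pcdhgb6, and none was higher. In treated against WT mice 1 was higher and 1 lower (9.78% and 11.6% of all genes). Against untreated mice, 5 of 22 were higher in treated mice (22.7%, with 2.5% of all genes), and none of them passed after adjustment.

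Of the gamma members, Pcdhga6 fell by edgeR's adjusted p in untreated mice. It had 47.2, 47.8 and 48.4 CPM in WT, 29.3, 39.5 and 29.8 CPM in untreated and 46.1, 36.4 and 46.2 CPM in treated mice. Its log2 fold change was -0.54 ± 0.13 in untreated against WT mice (edgeR adjusted p = 0.0341), -0.16 ± 0.13 in treated against WT mice (edgeR adjusted p = 0.545) and 0.39 ± 0.13 in treated against untreated mice (edgeR adjusted p = 0.886). The call against WT held in 6 of 16 alternative settings.

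The same mice did not stand out for every gamma member. Pcdhgb1, 1 of the 3 gamma members with the largest mean CPM, had 24.2, 148 and 26.2 CPM in WT, 26.8, 13.9 and 46.1 CPM in untreated and 26.8, 29.3 and 34.3 CPM in treated mice. WT mouse 2, with 4038 counts, stands far above the others, and the log2 fold change was -1.19 ± 0.67 in untreated against WT mice (edgeR adjusted p = 0.273). On looking through the members, wide differences between mice of a group were seen for 3 more, with 1 or more high mice. Pcdhgb8 had 7.21, 6.01 and 97.9 CPM in WT, 47.3, 6.84 and 4.72 CPM in untreated and 18.8, 75.7 and 6.97 CPM in treated mice. For Pcdhgb4 the values were 21.5, 49.5 and 22.4 CPM, 38.8, 9.43 and 77.4 CPM, and 31.3, 66.3 and 19.2 CPM, and for Pcdhga2 untreated mouse 1 was highest at 58.6 CPM, with the other mice between 17.7 and 35.2 CPM. High and low mice occurred in every group, and none of the 4 was called. Among 28 members with a mean of at least 10 CPM, 2 (Pcdhgb1 and Pcdhgb8) had a library at 3 times the median of the 9 libraries or more, and 1.37% of 10580 such genes did.

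**Figure D5:**
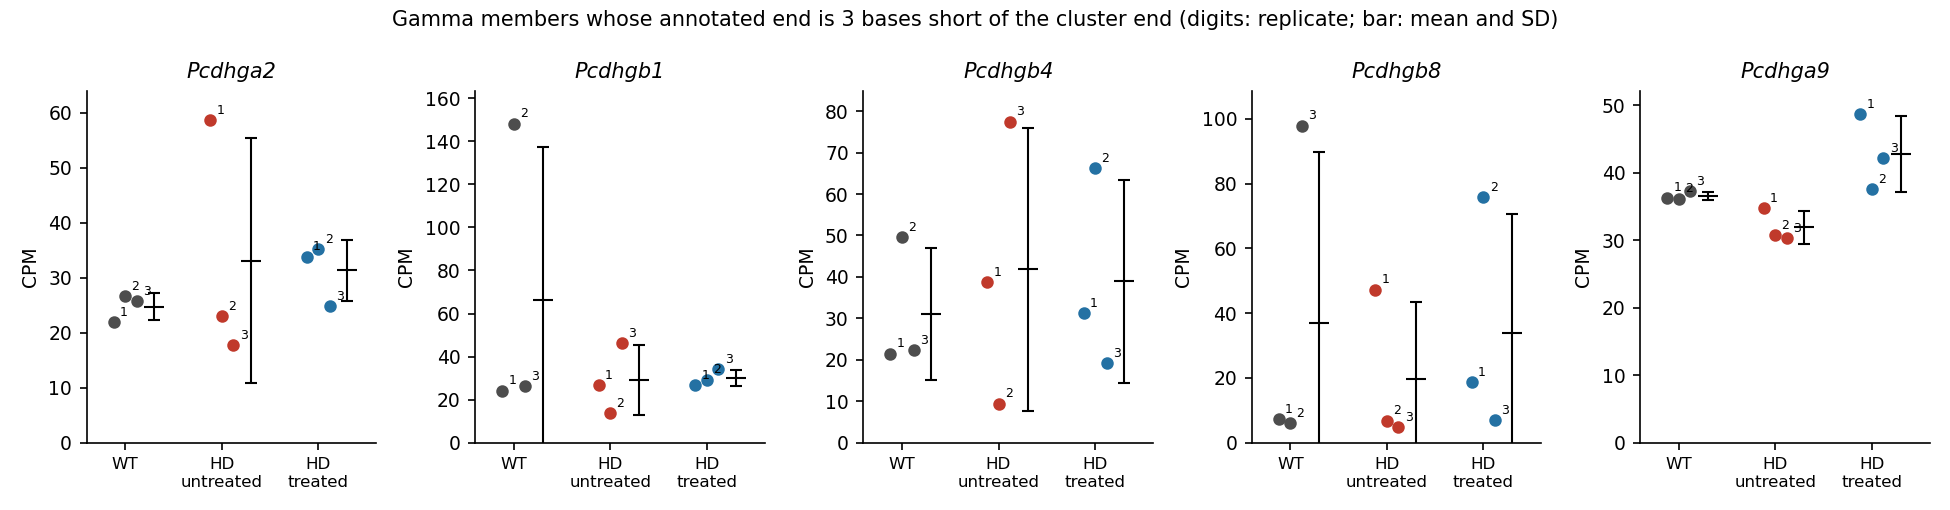
CPM in each mouse of the 5 gamma members whose annotated end lies 3 bases before that of the other 17 (points, digits are replicate numbers, bars the mean and SD, drawn from 0 where the SD is larger than the mean). For Pcdhgb1 the high mouse is WT 2, for Pcdhgb8 WT 3, treated 2 and untreated 1, and Pcdhga9 has no such mouse.

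These 4 are among the 5 gamma members that end 3 bases before the other 17 in the GENCODE M21 annotation, the fifth being Pcdhga9. The highest library was 1.34 to 13.6 times the median for those 5 and 1.04 to 1.51 times for the other 17. All 22 gamma and all 14 alpha members share every one of their last 500 exon bases with other members, the part of a transcript that a 3′ library reads. How reads on shared exons were assigned to a member is not given in the sources used here, so the counts of single alpha and gamma members are uncertain. Of the beta members, 21 of 22 share none of these bases. The exception is Pcdhb21, which shares 455 of 500 with another member.

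The summed level of the 4 members was 74.8, 230 and 172 CPM in WT, 172, 53.2 and 146 CPM in untreated and 111, 207 and 85.3 CPM in treated mice. That of the other 18 was 768, 665 and 677 CPM in WT, 576, 714 and 546 CPM in untreated and 706, 613 and 725 CPM in treated mice. In each group the mouse with the least of the 4 had the most of the 18. The whole gamma sum of treated mice thus varied by an SD of 4.33 CPM, while that of the 18 varied by 60.3 CPM. Without the 4 members the gamma means were 703 ± 56.5, 612 ± 89.5 and 681 ± 60.3 CPM, the order of the groups was the same, and the groups overlapped.

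The C-type gamma members showed small differences among the groups. Pcdhgc3 had 119, 116 and 114 CPM in WT, 92.6, 120 and 113 CPM in untreated and 120, 117 and 113 CPM in treated mice. Pcdhgc5 had 197, 149 and 143 CPM in WT, 147, 182 and 130 CPM in untreated and 148, 131 and 170 CPM in treated mice. For Pcdhgc4 the values were 18.6, 16.9 and 18.8 CPM, 19.98, 17.2 and 16.7 CPM, and 13.96, 13.5 and 20.1 CPM. The groups of all 3 overlapped in every comparison, with log2 fold changes from -0.19 (Pcdhgc4, treated against WT, SE 0.16) to 0.11 (Pcdhgc3, treated against untreated, SE 0.09). None was called. Their sum stood at 93.9% of WT in untreated and 94.9% in treated mice.

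The alpha cluster was higher in both HD groups by its median, with few single members called. Its 14 members summed to 158, 118 and 136 CPM in WT, to 190, 180 and 133 CPM in untreated and to 164, 149 and 164 CPM in treated mice. The groups overlapped, and untreated mouse 3, the one with the most microglial and T cell markers, was again below the other 2 untreated mice. Without it the median log2 fold changes in untreated against WT mice were 0.49 for the alpha, 0.34 for the beta and -0.15 for the gamma cluster. Leaving out other untreated mice moved them the other way. Without untreated mouse 1 the alpha median was 0.13, and without untreated mouse 2 the beta and gamma medians were 0.14 and -0.35. The part of those markers was not tested. The means were 137 ± 20.04, 168 ± 30.5 and 159 ± 8.79 CPM. The median log2 fold change was 0.29 in untreated (10 of 14 above 0) and 0.35 in treated mice (12 of 14 above 0) against WT, and 0.02 between treated and untreated mice (7 of 14 above 0). At an unadjusted P under 0.05, 1 of 14 was higher in each comparison with WT (15% and 9.78% of all genes), Pcdha11 in untreated and Pcdha3 in treated mice. In treated against untreated mice 1 of 14 was lower (3% of all genes), again Pcdha11.

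Pcdha11 (ENSMUSG00000007440) rose in untreated mice. It had 6.57, 4.11 and 6.58 CPM in WT, 9.99, 12.5 and 10.9 CPM in untreated and 7.56, 5.66 and 8.84 CPM in treated mice, so that all untreated mice were above all others. Its log2 fold change was 0.96 ± 0.22 in untreated (edgeR adjusted p = 0.0297) and 0.35 ± 0.22 in treated against WT mice (edgeR adjusted p = 0.399), and -0.60 ± 0.22 in treated against untreated mice (unadjusted P of 0.0231, edgeR adjusted p = 0.886). The call held in 9 of 16 alternative settings. The second gene under this symbol, ENSMUSG00000102206, had 5.32, 7.26 and 4.82 CPM in WT, 8.59, 4.46 and 11.1 CPM in untreated and 9.74, 3.92 and 11.4 CPM in treated mice, and its groups overlapped.

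Pcdhac2, the C-type member with the largest mean CPM of the alpha cluster, had 66.1, 44.7 and 61.0 CPM in WT, 90.8, 75.5 and 58.7 CPM in untreated and 60.6, 61.4 and 71.7 CPM in treated mice. Its log2 fold change in untreated against WT mice was 0.39 ± 0.18 (edgeR adjusted p = 0.181). Pcdhac1 had 7.74, 3.08 and 3.25 CPM in WT, 2.91, 7.52 and 2.10 CPM in untreated and 4.22, 5.07 and 6.36 CPM in treated mice, so the mice of a group differed more than the group means. Pcdha12 had 26.4, 18.4 and 15.9 CPM, 19.2, 19.9 and 17.0 CPM, and 16.7, 20.05 and 14.1 CPM in WT, untreated and treated mice. Pcdha6 had 7.85, 6.60 and 10.7 CPM, 8.59, 12.6 and 5.87 CPM, and 10.8, 7.47 and 7.003 CPM. Neither of the last 2 separated any groups.

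Genes around the clusters gave a local comparison. Taf7, a subunit of a general transcription factor whose gene lies within the protocadherin locus, was at 7.67 ± 0.671 CPM in WT mice, and at 7.85 ± 1.59 and 7.17 ± 0.863 CPM in the untreated and treated HD mice. Hdac3, a histone deacetylase gene beyond the gamma cluster, was at 76.4 ± 1.36, 73.0 ± 2.43 and 73.6 ± 1.63 CPM. None of the tested neighbours (these 2, Hars2, Zmat2 and Diaph1) passed an adjusted p of 0.05 in any comparison. Diaph1, Zmat2 and Hars2 were at -0.24, 0.25 and -0.17 on the log2 scale in untreated against WT mice. Their unadjusted P in edgeR was 0.00655, 0.0152 and 0.0499, and for each the untreated and WT mice did not overlap. Over all genes tested, 28.6% had an unadjusted P under 0.05 in this comparison. The groups did not overlap for 15% of all genes with untreated mice higher and for 15.1% with untreated mice lower.

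Of 18 tested genes for CTCF, cohesin and chromatin regulators known for these clusters, none was a DEG in any comparison, and 1 fell by edgeR's adjusted p in untreated against WT mice, where 10.7% of all genes passed. This was Setdb1, a histone methyltransferase that silences chromatin, with 62.4, 63.9 and 62.7 CPM in WT, 49.5, 53.9 and 55.1 CPM in untreated and 54.0, 56.4 and 52.3 CPM in treated mice. The log2 fold change was -0.25 ± 0.07 in untreated (edgeR adjusted p = 0.0431) and -0.22 ± 0.07 in treated mice (edgeR adjusted p = 0.107). Next by P were Dnmt3a, a DNA methyltransferase, at -0.25 in untreated mice (edgeR adjusted p = 0.0709), and Rest, a repressor of neuronal genes, at 0.48 (edgeR adjusted p = 0.139). Ctcf itself was at 71.6, 71.9 and 69.1 CPM in the means of WT, untreated and treated mice.

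Of 22 tested genes for proteolysis, adhesion partners and intracellular effectors, none was a DEG and 1, Ptk2b, fell by edgeR's adjusted p. Over all genes, 10.7% passed in untreated and 3.69% in treated against WT mice. Ptk2b, a kinase that protocadherins are known to inhibit, had 539, 626 and 571 CPM in WT, 432, 396 and 403 CPM in untreated and 431, 401 and 408 CPM in treated mice. It fell by 0.50 on the log2 scale in untreated mice (edgeR adjusted p = 0.00634) and by 0.48 in treated mice (edgeR adjusted p = 0.0124), each with an SE of 0.08.

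Of 11 tested protocadherins encoded outside the clusters, 1 was a DEG, in untreated against WT mice, where 8.16% of all genes were. Pcdh20 had 8.49, 6.20 and 5.45 CPM in WT, 15.5, 17.0 and 10.01 CPM in untreated and 12.2, 9.87 and 11.5 CPM in treated mice. The log2 fold change was 1.08 ± 0.23 in untreated against WT mice (edgeR adjusted p = 0.0202). In treated against WT mice it was 0.74 ± 0.23 (edgeR adjusted p = 0.103). Pcdh7 and Pcdh19, named after their values were seen, also rose in untreated mice by edgeR's adjusted p, by 0.73 and 0.72 on the log2 scale (adjusted p = 0.0242 and 0.0425). With Pcdh20, 3 of 11 thus passed, beside 10.7% of all genes. Pcdh17, also named after its values were seen, went the other way at -0.52 in untreated against WT mice. It did not pass (edgeR adjusted p = 0.0572), but all untreated mice were below all WT mice. In treated against WT mice Pcdh7 was at 0.28 and Pcdh19 at 0.70, and neither passed (edgeR adjusted p = 0.361 and 0.0764). The median log2 fold change of the 11 genes was 0.29 in untreated and 0.18 in treated mice against WT, beside 0.02 and 0.00 over all genes.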

How the data were processed

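Striatal RNA of 9 mice was sequenced as 3′ mRNA libraries primed with oligo-dT. The authors deposited raw counts per Ensembl gene, whole numbers without normalization. The study's methods name STAR for alignment and quantification, while the submitters' processing notes list HISAT2 2.2.1 and featureCounts 2.0.1 without a role. The mouse build is not given in the sources used here, so no positions are printed, and gene structures come from GENCODE M21. No column was left unmapped. The pig counts were not used here.

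They were tested in edgeR 4.0.16 (R 4.3.3): filterByExpr by group, TMM scaling and a quasi-likelihood fit of all 9 libraries (6 residual degrees of freedom). P-values were adjusted by Benjamini-Hochberg over 19463 genes. Standard errors were derived from the fold change and the F statistic. DEGs had an unadjusted P under 0.05 and at least a 2-fold difference, as in the study's results text, and its methods give 0.01. Each library came from 1 mouse.

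Members and lists were chosen with earlier results of these data known. Named were the DEGs, the 3 members of each cluster with the largest mean CPM and the C-type members. In each pathway list the DEGs were named, or else the 3 genes with the smallest P in untreated against WT mice. Some of the genes that this rule names are not reported here. Replicate numbers did not pair the mice, and their check is given under the dependence on processing. Data were simulated for untreated against WT mice with 19463 genes. An adjusted p of 0.05 was passed by 28% of genes changed 1.5-fold, 60% of those changed 2-fold and 86% of those changed 4-fold. The DEG rule was met by 8%, 46% and 94% of them. Only 200 genes were changed there, whereas 10.7% of all genes passed in the real comparison. The adjustment was thus stricter in the simulation. The simulated spread followed the trend over expression level, which leaves out the wider spread of single genes such as Pcdhgb1. The rates of the simulation may therefore not carry over to the real data. Alternatives included DESeq2 1.42.0, other filters and scaling, a term for Y-linked counts, a replicate block and each mouse left out. Counts per direction and the gamma sum without 4 members were added after the data were seen. Figures used matplotlib 3.10.9 in Python 3.11.15.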

Additional observations from a re-analysis of the deposited data

How the results depend on the processing

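Each of 16 results of the members named for a call or for an unadjusted P under 0.05 kept its direction in all its alternatives (256 values, 0 reversed). These results were picked by an unadjusted P under 0.05 in the main fit, and the alternatives use the same mice. A reversal was thus unlikely from the start, and the kept direction does not show that the calls hold. In untreated against WT mice 0 of 57 members were DEGs. The number became 2 without TMM factors (8.39% of all genes) and 1 of 58 without a filter on low counts (6.14%). It became 4 with the term for Y-linked counts (5.48%) and 6 under an adjusted p of 0.05 in place of the fold rule (10.7%). With single mice left out it ran from 0 to 4, the 4 being without WT mouse 1 (10.3%). In treated against WT mice the number, 0 of 57, became 7 with the Y-linked term (3.08% of all genes) and 2 under the adjusted p (3.69%). It ran from 0 to 2 with single mice left out, where 4.17% to 6.79% of all genes were DEGs. In treated against untreated mice the number, 1 of 57, became 0 with the Y-linked term (0.997% of all genes) and 0 under the adjusted p (0%). It ran from 0 to 2 with single mice left out, where 0.863% to 1.33% of all genes were DEGs. With single mice left out, the number of the 21 beta members higher at an unadjusted P under 0.05 ran from 5 to 10 in untreated against WT mice. It ran from 10 to 15 in treated against WT mice and from 1 to 5 in treated against untreated mice. In the last comparison the Y-linked term gave 1 (1.77% of all genes). Over all genes, the share higher with single mice left out was 11.6% to 15.2%, 7.1% to 11.7% and 1.79% to 3.46% in the 3 comparisons. The lowest number of beta members was without untreated mouse 1 for untreated against WT mice (5). For treated against untreated mice it was without untreated mouse 1 or 3 or treated mouse 2 (1), and the highest there (5) was without WT mouse 2. That term moved the alpha median to 0.57 in untreated and 0.64 in treated against WT mice, and the beta median to 0.69 in treated against WT mice. The causes of these shifts were not tested. In that fit only untreated mouse 1 among the HD mice had Y-linked counts, so the term rests on that mouse. In the order alpha, beta and gamma, medians with single mice left out ran from 0.13 to 0.49, 0.14 to 0.34 and -0.35 to -0.15 in untreated against WT mice, from 0.16 to 0.38, 0.47 to 0.62 and -0.09 to 0.03 in treated against WT mice, and from -0.20 to 0.23, 0.18 to 0.32 and 0.18 to 0.36 in treated against untreated mice. Without TMM factors the gamma sums were 842, 742 and 829 CPM in WT, untreated and treated mice, and treated and WT mice overlapped. Without the 4 members uneven between libraries the gamma sums were 703, 612 and 681 CPM in WT, untreated and treated mice. A replicate block left 0, 0 and 1 members as DEGs in the 3 comparisons (7.83%, 5.36% and 0.837% of all genes). It left 8, 13 and 3 beta members higher at an unadjusted P under 0.05 (15.2%, 10.4% and 2.62% of all genes). The replicate number links different animals, whose departures from their group means correlated between -0.08 and 0.24 over all genes. With 3 mice a group, a difference of 1.5-fold was often missed in simulated data, so a member that did not pass is not shown to be unchanged.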
